A study of Mus musculus with 16 samples.

Results

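Olfactory receptor genes of mouse chromosome 11 were examined in sorted cells of the olfactory mucosa. They were taken as the array features whose identifier places them on chromosome 11 and whose symbol is Olfr followed by a number alone, which leaves out features named as pseudogenes. This rule gave 78 features of 78 genes, out of 1080 numbered Olfr features and 19572 tested features. RNA was measured on 16 Clariom S arrays, an Affymetrix array with 1 summarised value per transcript cluster. The mice were C57BL/6 animals of both sexes, aged 7 to 12 weeks, and all carried S100a5-tauGFP, a reporter in which the promoter of S100a5, a calcium-binding protein gene of sensory neurons that follows their activity, drives a fluorescent protein. Each of 24 mice sat alone in a clean air chamber for 40 h at an air flow of 3.1 L per min. From 26 h on they received pulses of 10 s every 20 min, either of a mixture of the aldehydes undecanal and bourgeonal (odor) or of filtered air (vehicle). The mucosa of 3 mice was pooled, dissociated and sorted by fluorescence into fractions titled GFP- and GFP+, which gave 4 pools per treatment and 4 arrays in each of 4 groups. Since 24 mice served 16 arrays of 3 mice each, the 2 fractions of each pool share their mice. No group without the reporter and no unsorted tissue was analysed here.

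The sample titles and the cell type entries of the labels give opposite GFP status on all 16 arrays. The titles were kept, so every fraction difference below is titled GFP- minus titled GFP+, in log2 units of array signal. S100a5 itself was 1.00 ± 0.20 (SE, adjusted p = 0.0019) higher in titled GFP- cells with vehicle and 1.31 ± 0.20 (SE, adjusted p = 0.00016) higher in odor pools, which goes against the titles. Read by the cell type entries instead, the differences below are those of fluorescent against non-fluorescent cells.

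Olfactory receptors are G protein-coupled receptors in the cilia of olfactory sensory neurons. Binding of an odorant activates a G protein, adenylyl cyclase raises cyclic AMP, and a cyclic nucleotide-gated channel opens. Each mature neuron expresses essentially a single receptor gene from a single allele, so the signal of a receptor gene in a cell mixture follows how many cells chose it as well as how much each makes. Receptor genes stand in clusters, and neighbours are often close relatives. The MOR numbers used below are an older mouse family naming, listed as synonyms in RefSeq, in which genes with the same first number have related proteins. No ligand is given by the labels for any of the 78 receptors. Among human receptors, OR1D2 is known to respond to bourgeonal in transfected cells, and its mouse counterpart was not assigned here.

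Within groups the arrays correlated at 0.979 to 0.995 over all tested features. Array background was taken as the 95th percentile of the background probe sets of each array, 6.87 to 7.41 (log2). Markers of mature sensory neurons were above the array background in every group apart from Cngb1, a subunit of the transduction channel, which was not well above background in 3 of the 4 groups. Of 11 such markers 2 were higher in titled GFP- cells with vehicle and 4 with odor, and 0 were lower, with summed signals within 20.82 to 21.09 in all 4 groups. The fractions differed in markers of other cells too. All 8 of 8 neutrophil markers and all 8 of 8 markers of other leukocytes were lower in the titled GFP- fraction with either treatment. The summed neutrophil signal spanned 8.59 to 9.03 (log2) on the vehicle titled GFP- arrays and 18.30 to 19.52 on the vehicle titled GFP+ arrays, with 8.52 to 9.68 and 18.25 to 19.24 on the odor arrays. All 8 neutrophil markers, Lcn2, S100a8 and Ngp among them, were not well above background in vehicle titled GFP- cells, and 7 in odor titled GFP- cells. For other leukocytes the summed signal spanned 9.03 to 9.33 against 15.30 to 17.09 in vehicle pools and 8.75 to 9.99 against 14.75 to 16.70 in odor pools, and Ptprc, which encodes the pan-leukocyte antigen CD45, was among 6 markers not well above background in both titled GFP- groups. The 6 of 6 immature neuron markers, such as Gap43 and Gng8, were also lower, with summed signals of 12.69 to 13.08 against 14.43 to 15.02 in vehicle pools and 12.53 to 13.10 against 14.40 to 14.82 in odor pools. Sustentacular markers were lower for 4 of 6 genes in vehicle and 5 of 6 in odor pools, and basal cell markers for 1 of 4, Kit. The activity-dependent genes (Pcp4l1, S100a5, Kirrel2, Lrrc3b and Plcxd3) were higher in 5 of 5 cases with either treatment. The part of these cells in the receptor differences was not tested, and in such mixtures fewer cells of a type and less RNA per cell cannot be told apart.

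With filtered air alone, 18 of the 78 receptors were higher in titled GFP- cells and 23 were lower, and 37 did not pass (limma, Benjamini-Hochberg adjusted p below 0.05 over all features). The receptors that passed made up 52.6% of the 78, against 16.9% of all features (7.05% higher and 9.82% lower). Of the 1002 other Olfr features 54.0% passed, 342 higher and 199 lower, and the difference in split was not tested. Differences on chromosome 11 ran from -7.62 for Olfr390 to 3.36 for Olfr222, with a median of 0.17 against 0.13 over all features. The split depends on the scaling, since centring the arrays on the median of tested features gave 37 higher and 22 lower, and centring on the receptor median gave 12 higher and 25 lower. These centrings move the median over all features from 0.13 to 0.54 and -0.14, and a small difference is to be read against that shift. For the account below the 78 genes were divided into 7 stretches of neighbouring receptors, a new one starting where more than 10 other coding genes intervene. Counts of stretches and families are to be read against the shares of all features and of the other Olfr features. No count was tested against them.

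**Figure D1:**
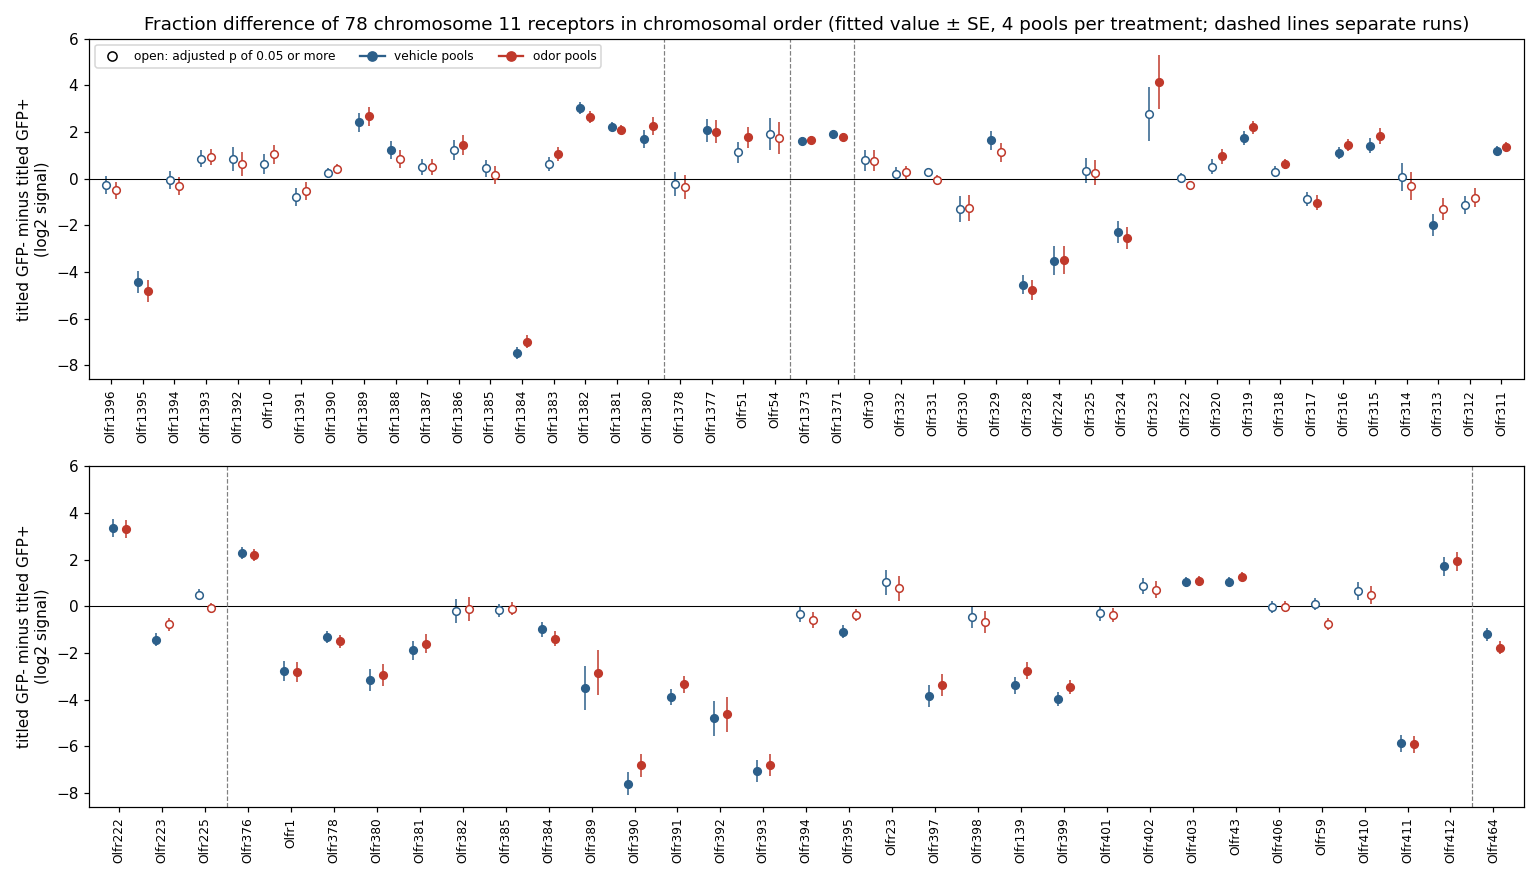
Fraction difference (titled GFP- minus titled GFP+, log2 signal) of each of the 78 receptors, with SE, in the order of the genes along the chromosome. Dashed lines separate the 7 stretches, filled points passed an adjusted p of 0.05, blue is vehicle and red is odor (4 pools each). The lowest values, from Olfr1384 and Olfr390, lie near -7, and the highest vehicle value is 3.36 for Olfr222.

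The largest positive difference in vehicle pools was that of Olfr222, a MOR256 receptor. It read 14.54, 15.32, 14.42 and 14.51 on the titled GFP- and 10.46, 12.22, 11.14 and 11.54 on the titled GFP+ arrays of the vehicle pools, and 14.20, 14.96, 15.20 and 14.43 on the titled GFP- and 10.31, 11.96, 11.80 and 11.47 on the titled GFP+ arrays of the odor pools. Every titled GFP- array lay above every titled GFP+ array, and the replicate 2 pool was the highest of its group in both vehicle fractions. The difference was 3.36 ± 0.38 (SE, adjusted p = 7.6e-06) or 10.3-fold in vehicle pools and 3.31 ± 0.38 (SE, adjusted p = 9.5e-06) in odor pools. The next gene along, Olfr223, is also named MOR256, and was at or below background on all 16 arrays: it read 3.38, 3.63, 3.81 and 3.48 on the titled GFP- and 4.55, 4.93, 4.31 and 6.23 on the titled GFP+ arrays of vehicle pools, with a difference of -1.43 ± 0.29 (SE, adjusted p = 0.0021) for which no fold is given. The remaining gene of this small stretch, Olfr225, was at or below background throughout and did not pass (0.50 ± 0.23 SE, adjusted p = 0.15).

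Olfr1382, Olfr1381 and Olfr1380 are direct neighbours, and all 3 were higher in the titled GFP- fraction. Olfr1382 read 11.98, 12.94, 12.48 and 12.54 on the titled GFP- and 9.11, 9.16, 10.20 and 9.35 on the titled GFP+ arrays of vehicle pools, a difference of 3.03 ± 0.27 (SE, adjusted p = 4.2e-07) that amounts to 8.18-fold. Olfr1381 read 11.67, 12.08, 11.78 and 11.90 on the titled GFP- and 9.87, 9.41, 10.02 and 9.20 on the titled GFP+ arrays (2.23 ± 0.20 SE, adjusted p = 4.4e-07), and neither gene had overlapping fractions. Olfr1380 read 10.17, 11.29, 10.36 and 10.34 on the titled GFP- and 9.04, 8.27, 8.94 and 9.03 on the titled GFP+ arrays (1.72 ± 0.38 SE, adjusted p = 0.0043). Its replicate 2 pool held both the highest titled GFP- and the lowest titled GFP+ value, and without that pool the difference of Olfr1380 was 1.28 and no longer passed (adjusted p = 0.054). In odor pools the differences were 2.64 ± 0.27 (SE, adjusted p = 1.9e-06), 2.10 ± 0.20 (SE, adjusted p = 8.6e-07) and 2.27 ± 0.38 (SE, adjusted p = 0.00041) for the 3 genes in this order.

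Olfr1389, a further MOR256 gene of the same stretch, read 11.93, 12.99, 11.67 and 13.12 on the titled GFP- and 9.59, 10.57, 9.53 and 10.32 on the titled GFP+ arrays of vehicle pools. In odor pools it read 11.31, 12.87, 11.89 and 12.59 on the titled GFP- and 9.41, 10.10, 8.57 and 9.85 on the titled GFP+ arrays. Replicates 2 and 4 were the higher pools in both fractions with either treatment, so the difference within a pool was steadier than the levels, at 2.34, 2.42, 2.13 and 2.80 in the vehicle pools. Fitted differences were 2.42 ± 0.42 (SE, adjusted p = 0.00048) with vehicle and 2.68 ± 0.42 (SE, adjusted p = 0.00019) with odor.

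Olfr1384 lies among these genes and went the other way. It read 5.90, 5.42, 5.70 and 6.60 on the titled GFP- and 13.75, 13.06, 13.14 and 13.58 on the titled GFP+ arrays of vehicle pools and 6.27, 5.84, 6.00 and 6.97 on the titled GFP- and 13.25, 12.95, 13.24 and 13.61 on the titled GFP+ arrays of odor pools. All 8 titled GFP- arrays were at or below background and all 8 titled GFP+ arrays read 12.95 or more, so the fractions were far from overlapping. Where a fraction is at or below background on all its arrays, the fold given is a lower bound. It is the mean of the brighter fraction over that background, or over the dim signal where this is higher. The bound holds for the array background used here, and a higher background level would make it smaller. The difference of Olfr1384 was -7.48 ± 0.27 (SE, adjusted p = 2.5e-11) with vehicle, which is at least 73.7-fold lower in titled GFP- cells. With odor the difference was -6.99 ± 0.27 (SE, adjusted p = 4.5e-11), at least 65-fold. Its neighbours on either side were Olfr1385 at 0.44 ± 0.37 (SE, adjusted p = 0.44) and Olfr1383 at 0.62 ± 0.30 (SE, adjusted p = 0.17) in vehicle pools, and neither passed there.

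Seen as a whole, the first stretch runs from Olfr1396 to Olfr1380 and holds 18 receptors, of which 5 were higher and 2 lower in vehicle pools and 6 and 2 in odor pools. In vehicle pools 38.9% of the stretch passed, against 54.0% of the other Olfr features and 16.9% of all features. The lower gene besides Olfr1384 was Olfr1395, the MOR277 member of the stretch. It read 9.99, 10.04, 10.62 and 11.31 on the titled GFP- and 15.08, 14.95, 14.52 and 15.09 on the titled GFP+ arrays of vehicle pools, a difference of -4.42 ± 0.47 (SE, adjusted p = 3.1e-06) or 21.4-fold, and 8.37, 9.95, 11.05 and 11.20 on the titled GFP- and 14.69, 15.09, 14.75 and 15.31 on the titled GFP+ arrays of odor pools. No titled GFP- value reached any titled GFP+ value. Olfr1388 passed only narrowly in vehicle pools (1.25 ± 0.38 SE, adjusted p = 0.033), and lost that call with the pool as a block (adjusted p = 0.063), after centring on the receptor median, and without vehicle replicate 2, 3 or 4 (differences of 0.88 to 1.38, adjusted p of 0.074 to 0.2). Olfr1396, the MOR276 gene at the edge of the stretch, was measured on all 16 arrays and did not differ beyond its spread, at -0.27 ± 0.38 (SE, adjusted p = 0.66) with pool differences of 0.53, -1.38, -0.43 and 0.19.

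The next stretches are short. Olfr1377, of family MOR129, read 7.43, 8.06, 7.19 and 8.77 on the titled GFP- and 4.73, 5.76, 5.96 and 6.68 on the titled GFP+ arrays of vehicle pools, and was above background on 3 titled GFP- arrays and no titled GFP+ array. Its difference of 2.08 ± 0.50 (SE, adjusted p = 0.0072) is therefore a bound of at least 1.74-fold. Its relative Olfr51 was higher in odor pools (1.78 ± 0.45 SE, adjusted p = 0.0096) and did not pass in vehicle pools (1.15 ± 0.45 SE, adjusted p = 0.095). Olfr54 was higher in titled GFP- in 4 of 4 vehicle pools but by unequal amounts (2.25, 2.53, 0.77 and 2.18), and the fitted 1.93 ± 0.70 (SE, adjusted p = 0.07) did not pass, but did with the pool as a block (adjusted p = 0.0029, and 0.0048 in odor pools). Olfr1378 was at or below background on all 16 arrays.

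Olfr1373 and Olfr1371 stand alone as a pair, and both were higher in titled GFP-. Olfr1373 read 9.52, 9.80, 9.56 and 9.95 on the titled GFP- and 8.15, 7.89, 8.32 and 7.94 on the titled GFP+ arrays of vehicle pools (1.63 ± 0.16 SE, adjusted p = 1.9e-06), and Olfr1371 read 9.88, 10.39, 10.41 and 10.10 on the titled GFP- and 8.14, 8.44, 8.64 and 7.92 on the titled GFP+ arrays (1.91 ± 0.19 SE, adjusted p = 1.5e-06). Both had separate fractions, and the odor differences, 1.65 ± 0.16 (SE, adjusted p = 1.7e-06) and 1.79 ± 0.19 (SE, adjusted p = 3.3e-06), were of like size.

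**Figure D2:**
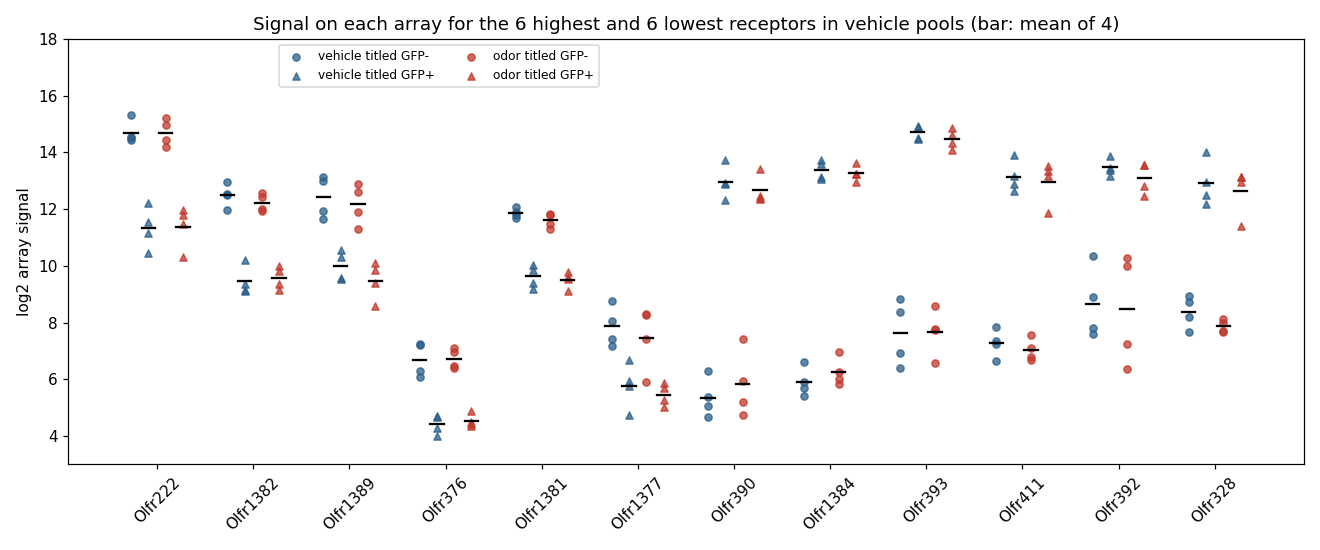
Log2 array signal on each of the 16 arrays for the 6 receptors with the highest and the 6 with the lowest fraction difference in vehicle pools. Circles are titled GFP- and triangles titled GFP+ arrays, blue is vehicle and red is odor, and bars are means of 4 arrays. For the 6 lowest, every titled GFP- value lies below every titled GFP+ value, with means such as 5.90 against 13.38 for Olfr1384 in vehicle pools.

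The fourth stretch, from Olfr30 to Olfr311, holds 21 receptors of mixed families. In vehicle pools 5 were higher and 4 lower, and in odor pools 7 and 4. The lowest was Olfr328, of family MOR275. It read 8.74, 7.65, 8.93 and 8.18 on the titled GFP- and 12.96, 12.17, 14.03 and 12.49 on the titled GFP+ arrays of vehicle pools and 7.67, 8.0, 8.14 and 7.70 on the titled GFP- and 11.40, 12.96, 13.12 and 13.13 on the titled GFP+ arrays of odor pools. The fractions did not overlap, and the odor titled GFP+ array of replicate 1 stood below its other replicates. Differences were -4.54 ± 0.41 (SE, adjusted p = 6.5e-07), or 23.2-fold, with vehicle and -4.78 ± 0.41 (SE, adjusted p = 3.9e-07) with odor. Its neighbour Olfr224, also MOR275, was lower by nearly the same amount with either treatment (-3.51 ± 0.60 SE, adjusted p = 0.00049, and -3.50 ± 0.60 SE, adjusted p = 0.00052), and Olfr324 of family MOR102 was lower as well (-2.27 ± 0.47 SE, adjusted p = 0.0024). MOR275 was not of one kind, however: Olfr329 was higher in vehicle pools (1.65 ± 0.41 SE, adjusted p = 0.0092), and Olfr330, Olfr331 and Olfr325 did not pass. Without vehicle replicate 1 the vehicle difference of Olfr329 was 1.38 (adjusted p = 0.071) and that of Olfr330 was -1.92 (adjusted p = 0.035).

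Olfr323, the only MOR107 member here, showed the widest scatter. In vehicle pools it read 9.16, 11.19, 3.91 and 11.01 on the titled GFP- and 5.45, 7.61, 4.31 and 6.73 on the titled GFP+ arrays. Replicate 3 had no signal above background in either fraction, while the other 3 pools were higher in titled GFP- by 3.71, 3.59 and 4.27. With all 4 pools the vehicle difference was 2.79 ± 1.16 (SE, adjusted p = 0.12), which does not pass. With the pool as a block its adjusted p was 0.0099, and without replicate 3 the difference was 3.86 (adjusted p = 0.00042). In odor pools it read 9.82, 9.94, 9.15 and 10.72 on the titled GFP- and 5.70, 5.34, 5.42 and 6.55 on the titled GFP+ arrays, all 4 titled GFP- arrays above all titled GFP+ arrays, none of the latter above background. The odor difference of 4.16 ± 1.16 (SE, adjusted p = 0.017), at least 6.26-fold, was the largest positive one of the 78. It lost its call when any one odor pool was left out (adjusted p of 0.052 to 0.073), while its size stayed at 4.01 to 4.30. The odor pool differences of Olfr323 were 4.13, 4.61, 3.74 and 4.17. The SE comes from a spread shared by all 4 groups, so the low vehicle replicate 3 enters the odor SE and the odor calls too.

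All 4 MOR285 genes of chromosome 11 lie in this stretch, and 2 of them were higher in vehicle pools and 4 in odor pools. Olfr319 read 11.27, 11.04, 10.18 and 10.09 on the titled GFP- and 8.52, 9.10, 8.54 and 9.38 on the titled GFP+ arrays of vehicle pools, a difference of 1.76 ± 0.29 (SE, adjusted p = 0.00039), and 2.20 ± 0.29 (SE, adjusted p = 4.4e-05) in odor pools, with no overlap between fractions. Olfr316 passed in both treatments (1.11 ± 0.26 SE, adjusted p = 0.0071, and 1.46 ± 0.26 SE, adjusted p = 0.00079). Olfr320 and Olfr318 passed in odor and not in vehicle pools, at 0.96 ± 0.31 (SE, adjusted p = 0.038) and 0.65 ± 0.22 (SE, adjusted p = 0.043) against 0.52 ± 0.31 (SE, adjusted p = 0.28) and 0.31 ± 0.22 (SE, adjusted p = 0.36) in vehicle pools, and that change was not itself past the test. The odor calls of both were lost in 3 or more fits that left out 1 odor pool (differences of 0.50 to 1.03). With the pool as a block Olfr320 passed in vehicle pools too (adjusted p = 0.049), and Olfr318 lost its odor call (adjusted p = 0.057). Olfr315 (MOR278) and Olfr311 (MOR222) were also higher with either treatment, at 1.41 ± 0.33 (SE, adjusted p = 0.0058) and 1.20 ± 0.22 (SE, adjusted p = 0.0008) in vehicle pools. Centring on the receptor median ended the vehicle calls of both and the odor call of Olfr311. Olfr332 differed by less than its spread (0.22 ± 0.28 SE, adjusted p = 0.61).

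The sixth stretch, from Olfr376 to Olfr412, is the largest with 29 receptors, and it leaned towards titled GFP+: 15 were lower and 4 higher in vehicle pools, 14 and 4 in odor pools. Medians were -0.98 and -0.76. In vehicle pools 51.7% of the stretch were lower and 13.8% higher. The shares were 19.9% and 34.1% for the other Olfr features and 9.82% and 7.05% for all features. Centring on the tested median left 14 lower and 7 higher in vehicle pools and centring on the receptor median 15 and 2, so the lean kept its direction under both. All 17 MOR135 genes of chromosome 11 lie in it. Of these 17, 12 were lower and 1 higher in vehicle pools and 11 and 1 in odor pools, with medians of -1.89 and -1.61. The vehicle shares of MOR135 were 70.6% lower and 5.88% higher. After the same centrings the vehicle median of MOR135 was -1.49 and -2.16. The probes of such related genes may share transcripts, and their sequence likeness was not computed here, so the number of separately changed MOR135 genes is uncertain.

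Olfr390 had the lowest difference of the 78 receptors. It read 4.66, 5.38, 5.05 and 6.29 on the titled GFP- and 12.92, 12.32, 12.88 and 13.73 on the titled GFP+ arrays of vehicle pools and 5.93, 4.75, 5.21 and 7.44 on the titled GFP- and 12.40, 12.47, 12.35 and 13.43 on the titled GFP+ arrays of odor pools. No vehicle titled GFP- array was above background, and 1 of 4 odor titled GFP- arrays was, that of replicate 4, whose titled GFP+ value was also the highest of its group. The vehicle difference of -7.62 ± 0.49 (SE, adjusted p = 1.3e-08) is at least 55.1-fold lower, and the odor difference was -6.83 ± 0.49 (SE, adjusted p = 4.6e-08), for which no fold is given since 3 of 4 titled GFP- arrays were at or below background.

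Olfr393 was close behind. Its arrays read 6.94, 6.41, 8.37 and 8.84 on the titled GFP- and 14.91, 14.91, 14.48 and 14.50 on the titled GFP+ arrays of vehicle pools and 7.73, 7.79, 6.58 and 8.60 on the titled GFP- and 14.10, 14.32, 14.63 and 14.86 on the titled GFP+ arrays of odor pools. The titled GFP+ values kept within a narrow band while the titled GFP- values scattered, 2 of 4 and 3 of 4 of them above background. Differences were -7.06 ± 0.46 (SE, adjusted p = 1.5e-08) and -6.80 ± 0.46 (SE, adjusted p = 2.6e-08), and no fold is given over arrays that are in part at or below background.

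Olfr392 read 7.59, 10.34, 8.89 and 7.82 on the titled GFP- and 13.45, 13.18, 13.39 and 13.87 on the titled GFP+ arrays of vehicle pools, and 6.36, 10.27, 10.01 and 7.25 on the titled GFP- and 12.47, 12.81, 13.56 and 13.57 on the titled GFP+ arrays of odor pools. In titled GFP- cells replicates 2 and 3 were the highest with either treatment, yet all stayed below the titled GFP+ arrays. Differences were -4.81 ± 0.74 (SE, adjusted p = 0.00018) and -4.63 ± 0.74 (SE, adjusted p = 0.00027). Olfr389 varied in the same fraction over a still wider range, reading 7.47, 6.28, 4.88 and 10.01 on the titled GFP- and 10.16, 10.40, 10.50 and 11.60 on the titled GFP+ arrays of vehicle pools, and passed with -3.51 ± 0.96 (SE, adjusted p = 0.018) and -2.85 ± 0.96 (SE, adjusted p = 0.043). The vehicle call was lost without vehicle replicate 1, 2 or 3 (differences of -3.78 to -2.80, adjusted p of 0.053 to 0.11), and the odor call without odor replicate 1, 2 or 3 (-2.86 to -2.47, adjusted p of 0.12 to 0.13).

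Further MOR135 genes were lower with less signal to measure. Olfr1 was -2.79 ± 0.43 (SE, adjusted p = 0.00017) in vehicle and -2.84 ± 0.43 (SE, adjusted p = 0.00015) in odor pools, with 3 of 4 and 2 of 4 titled GFP- arrays above background. Olfr391, Olfr397 and Olfr380 were at or below background on every titled GFP- array, so only bounds hold: at least 1.8-fold, 2.04-fold and 3.08-fold lower in vehicle pools, with fitted differences of -3.90 ± 0.36 (SE, adjusted p = 6.9e-07), -3.84 ± 0.48 (SE, adjusted p = 1.8e-05) and -3.17 ± 0.48 (SE, adjusted p = 0.00014). For Olfr381 and Olfr378 the bounds were at least 1.15-fold and 1.13-fold. Olfr384 passed narrowly in vehicle pools (-0.98 ± 0.32 SE, adjusted p = 0.043) and more clearly with odor (-1.39 ± 0.32 SE, adjusted p = 0.0049). Olfr395, below background on all 16 arrays, passed in vehicle pools alone (-1.08 ± 0.27 SE, adjusted p = 0.01). The vehicle call of Olfr384 was lost without vehicle replicate 1, 2 or 4 (differences of -1.11 to -0.77, adjusted p of 0.074 to 0.22). It was also lost without odor replicate 2 or 4, with quantile normalization and after centring on the tested median. Without vehicle replicate 1 and 3 in turn, the difference of Olfr395 was -1.04 and -0.75 and did not pass (adjusted p of 0.059 and 0.11).

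A few MOR135 genes did not follow the rest. Olfr376, at the edge of the stretch, was the only one that was higher: it read 6.08, 7.19, 6.29 and 7.23 on the titled GFP- and 3.99, 4.29, 4.71 and 4.68 on the titled GFP+ arrays of vehicle pools and 6.40, 7.09, 6.96 and 6.47 on the titled GFP- and 4.34, 4.51, 4.89 and 4.44 on the titled GFP+ arrays of odor pools. Fractions were separate, but only 1 titled GFP- array in each treatment was above background, and the differences of 2.28 ± 0.26 (SE, adjusted p = 8.3e-06) and 2.19 ± 0.26 (SE, adjusted p = 1.4e-05) are given without a fold, since the titled GFP- means lay below background. Olfr394, which stands between Olfr393 and Olfr395, was measured on all 16 arrays and did not differ beyond its spread. It read 14.35, 13.43, 14.26 and 14.93 on the titled GFP- and 14.57, 14.79, 14.55 and 14.41 on the titled GFP+ arrays of vehicle pools (-0.34 ± 0.34 SE, adjusted p = 0.52). Olfr23 did not pass in vehicle pools (1.03 ± 0.54 SE, adjusted p = 0.21) but did with the pool as a block (adjusted p = 0.020) and without odor replicate 1 (0.042), and Olfr382 and Olfr385 lay near 0.

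Upstream sequences are shown for those MOR135 and MOR275 genes whose RefSeq model starts ahead of the coding sequence, because 6 of the 7 genes shown were lower with either treatment and the remaining one, Olfr330, is a relative that did not pass. Of the 78 genes, 68 have a start in the RefSeq table (GRCm38.p6), but 47 of these begin at an ATG, so the listed window may lie inside the gene rather than at its promoter. A gene span above 2000 bases, a start other than ATG and a single listed start left 8 genes, all on the minus strand, of which Olfr332 is not printed. The 250 bases before the start are given 5′ to 3′ on the gene's strand. Capitals mark TAATTA or TAATGA, which are homeodomain-type cores, or CCCNNGGG, the palindromic core of Olf/Ebf sites, on either strand. None of these motifs overlaps another in the printed windows.
Olfr1 (chr11:73399496-73399745): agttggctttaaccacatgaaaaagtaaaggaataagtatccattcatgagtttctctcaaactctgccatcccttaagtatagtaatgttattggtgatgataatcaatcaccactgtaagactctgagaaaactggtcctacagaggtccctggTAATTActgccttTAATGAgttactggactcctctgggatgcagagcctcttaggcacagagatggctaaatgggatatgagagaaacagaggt
Olfr378 (chr11:73428478-73428727): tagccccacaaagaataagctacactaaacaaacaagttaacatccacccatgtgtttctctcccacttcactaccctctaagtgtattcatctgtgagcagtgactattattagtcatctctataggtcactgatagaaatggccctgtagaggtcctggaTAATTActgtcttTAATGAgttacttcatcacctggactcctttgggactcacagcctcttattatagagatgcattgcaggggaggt
Olfr389 (chr11:73780590-73780839): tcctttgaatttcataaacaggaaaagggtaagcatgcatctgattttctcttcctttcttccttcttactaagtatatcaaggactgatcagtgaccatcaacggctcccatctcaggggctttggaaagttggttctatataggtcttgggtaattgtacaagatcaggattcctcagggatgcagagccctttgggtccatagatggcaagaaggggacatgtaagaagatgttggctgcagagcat
Olfr391 (chr11:73802985-73803234): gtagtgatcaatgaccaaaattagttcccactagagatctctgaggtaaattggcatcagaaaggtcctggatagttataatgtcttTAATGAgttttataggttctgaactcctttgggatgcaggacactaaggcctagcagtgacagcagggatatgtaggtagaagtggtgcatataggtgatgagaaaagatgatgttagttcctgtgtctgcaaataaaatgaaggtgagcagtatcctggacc
Olfr392 (chr11:73816878-73817127): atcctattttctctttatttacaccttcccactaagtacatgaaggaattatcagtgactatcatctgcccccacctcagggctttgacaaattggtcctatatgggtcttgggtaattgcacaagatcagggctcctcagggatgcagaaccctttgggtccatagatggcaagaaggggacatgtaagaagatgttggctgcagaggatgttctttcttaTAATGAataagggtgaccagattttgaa
Olfr330 (chr11:58534826-58535075): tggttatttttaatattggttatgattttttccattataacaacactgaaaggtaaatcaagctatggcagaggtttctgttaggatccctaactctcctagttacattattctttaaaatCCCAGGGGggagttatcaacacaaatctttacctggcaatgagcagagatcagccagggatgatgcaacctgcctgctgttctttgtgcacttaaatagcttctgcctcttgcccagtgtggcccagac
Olfr224 (chr11:58570569-58570818): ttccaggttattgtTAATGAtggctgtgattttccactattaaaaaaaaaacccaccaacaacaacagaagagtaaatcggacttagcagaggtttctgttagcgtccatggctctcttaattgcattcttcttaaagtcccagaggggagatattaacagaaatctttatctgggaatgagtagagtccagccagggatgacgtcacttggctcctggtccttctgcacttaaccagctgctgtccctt

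Olfr1 and Olfr378 carry the same pair of motifs in the same order, a TAATTA at bases 94 to 89 and 88 to 83 before the start and a TAATGA at bases 81 to 76 and 75 to 70. Olfr391, Olfr392 and Olfr224 hold a TAATGA alone, at bases 163 to 158, 28 to 23 and 236 to 231. Olfr330 holds a CCCNNGGG at bases 129 to 122, and in the window of Olfr389 none of the 3 was found. In the 32851 windows of the table, TAATTA occurred in 4.84%, TAATGA in 8.59% and CCCNNGGG in 11.8%, and in the 944 receptor windows in 18.1%, 25.3% and 2.75%. Among the 8 windows 2 held TAATTA, 5 TAATGA and 1 CCCNNGGG. The 944 receptor windows were not filtered by gene span or start as these 8 were, so the shares are not of like windows. In pairwise global alignments Olfr330 and Olfr224 shared 66.9% of aligned positions, Olfr1 and Olfr378 63.5% and Olfr389 and Olfr392 63.4%, with 45.2% to 62.6% for the other pairs of the 28. Within MOR275, Olfr224 was lower and Olfr330 did not pass (-1.30 ± 0.54 SE, adjusted p = 0.12 in vehicle pools), while all 5 MOR135 genes shown were lower with either treatment. These matches describe the letters of the windows and were not tested against the signals.

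**Figure D3:**
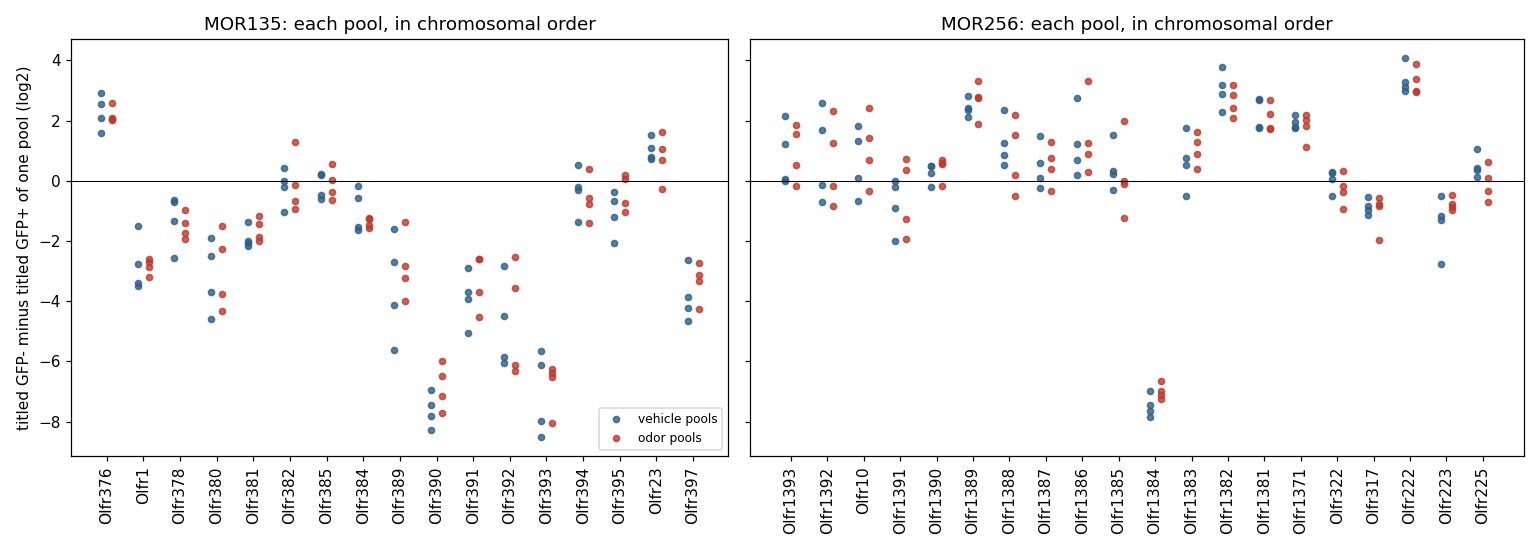
Fraction difference of each single pool (titled GFP- minus titled GFP+, log2) for the 17 MOR135 and the 20 MOR256 receptors, in the order of the chromosome. Blue points are the 4 vehicle and red points the 4 odor pools. Most MOR135 genes lie below 0 in every pool, while MOR256 genes are mixed: Olfr1384 lies near -7 in all pools, Olfr317 and Olfr223 are below 0 in all 8, and Olfr1391 in 6 of 8.

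Next to MOR135 in the sixth stretch stand the MOR255 genes, of which 3 of 6 were lower and 0 higher with either treatment. Olfr411 read 7.37, 6.64, 7.23 and 7.86 on the titled GFP- and 12.88, 13.17, 12.65 and 13.89 on the titled GFP+ arrays of vehicle pools and 6.69, 7.11, 6.80 and 7.57 on the titled GFP- and 11.85, 13.33, 13.16 and 13.52 on the titled GFP+ arrays of odor pools. The fractions were several log2 units apart on every array. Its differences were -5.87 ± 0.36 (SE, adjusted p = 6.8e-09) and -5.92 ± 0.36 (SE, adjusted p = 6.9e-09), and 2 of 4 titled GFP- arrays in each treatment were above background, so no fold is given. Olfr399 and Olfr139 were lower with no titled GFP- array above background, at least 3.59-fold (-3.98 ± 0.30 SE, adjusted p = 6.9e-08) and 2.4-fold (-3.39 ± 0.36 SE, adjusted p = 3.1e-06) in vehicle pools. Olfr402 and Olfr410 had positive differences that did not pass (0.87 ± 0.35 SE, adjusted p = 0.1, and 0.67 ± 0.38 SE, adjusted p = 0.25) but did with the pool as a block (adjusted p = 0.017 and 0.048, and 0.035 for Olfr402 in odor pools), and Olfr401 was below background. With quantile normalization 1 and with centring on the tested median 2 of the 6 MOR255 genes became higher in vehicle pools.

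Olfr43 and Olfr403 were both higher in titled GFP-. Olfr43 is the mouse counterpart of human OR1A1, a receptor known for citronellic terpenoids, and RefSeq lists each of the pair as a synonym of the other. Olfr43 read 13.41, 13.29, 12.87 and 13.16 on the titled GFP- and 12.23, 12.51, 11.88 and 11.95 on the titled GFP+ arrays of vehicle pools (1.04 ± 0.19 SE, adjusted p = 0.001). Olfr403 read 13.59, 13.55, 13.22 and 13.46 on the titled GFP- and 12.47, 12.86, 12.29 and 12.12 on the titled GFP+ arrays (1.02 ± 0.21 SE, adjusted p = 0.0028), nearly the same pattern over the pools, and the arrays cannot be taken to measure them separately. Centring on the receptor median took both below the threshold in vehicle pools. At the end of the stretch Olfr412, of family MOR127, was higher with either treatment (1.71 ± 0.42 SE, adjusted p = 0.0085, and 1.93 ± 0.42 SE, adjusted p = 0.0034) by 2.29, 1.43, 0.22 and 2.89 in the vehicle pools, and its vehicle call was lost without replicate 1 or 4 (1.51 and 1.32).

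Olfr464 (MOR240) stands alone further along the chromosome. It read 11.89, 11.89, 11.54 and 11.83 on the titled GFP- and 12.70, 13.71, 13.52 and 12.00 on the titled GFP+ arrays of vehicle pools and 11.17, 11.02, 11.47 and 11.31 on the titled GFP- and 13.06, 13.17, 13.14 and 12.70 on the titled GFP+ arrays of odor pools. All titled GFP- arrays lay below all titled GFP+ arrays of their treatment. The difference was -1.19 ± 0.28 (SE, adjusted p = 0.006) with vehicle, 2.29-fold, and -1.77 ± 0.28 (SE, adjusted p = 0.00021) with odor. Without vehicle replicate 3 the vehicle difference was -0.93 and did not pass.

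MOR256 is the largest family among the 78, with 20 genes in 4 of the stretches. In vehicle pools 6 were higher and 2 lower, and in odor pools 7 and 2, with medians of 0.63 and 0.75. With vehicle 40% of MOR256 passed, against 54.0% of the other Olfr features and 16.9% of all features. Centring on the tested median gave 15 higher and 2 lower in vehicle pools, and centring on the receptor median 5 and 3, with medians of 1.03 and 0.36, so the median stayed above 0 while the number of higher calls hung on the scale. Between neighbours within a stretch, 45 of 71 pairs had differences of one sign in vehicle pools, and of the 20 pairs in which both passed, 16 had one sign. The share for other receptors or for all features was not computed, so these counts do not show that neighbours are alike. The pairs also include genes below background, such as Olfr223 and Olfr395. Changes of sign between called neighbours occurred, as at Olfr329 and Olfr328 or Olfr411 and Olfr412. Those at Olfr222 and Olfr223 and at Olfr376 and Olfr1 are less sure. Olfr223 and the titled GFP- mean of Olfr376 lay below background.

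Signal strength limits part of this. Of the 78 receptors 36 were above background on all 16 arrays and 9 were at or below it on all 16. In vehicle pools both fractions were measured for 56 receptors, 11 could be given only as a bound, 2 had a brighter fraction that averaged below background and so no bound, and 9 had no measured side. Of the called receptors 11 are bounds with vehicle and 11 with odor. No bound could be given for 1 called with vehicle, Olfr376, and 3 with odor, Olfr376, Olfr317 and Olfr381, and 2 with vehicle, Olfr223 and Olfr395, were below background in both fractions. A stricter level, the 95th percentile of the negative control entries, left 50 receptors above it on some array against 69, and put 12 vehicle and 14 odor calls below it in both fractions. Folds over that level are not given here. The bounds above would be smaller over it or, as for Olfr1377, could not be given. Olfr328, whose fold is given above as measured, was below that level on every titled GFP- array, so its fold would be a bound as well.

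In odor pools 22 receptors were higher in titled GFP- cells, 21 were lower and 35 did not pass. The share that passed was 55.1%, against 22.2% of all features (12.2% higher and 9.98% lower) and 56.6% of the other Olfr features. The median was -0.07. Centring on the tested median gave 30 higher and 20 lower with a median of 0.24, and centring on the receptor median 16 and 30 with a median of -0.53. With vehicle and odor set side by side, 36 receptors passed in both with the same direction, 16 higher and 20 lower, against 12.5% of all features that did so. Among the 1002 other Olfr features 498 did so, 325 higher and 173 lower. A further 5 passed with vehicle alone (Olfr1388, Olfr329, Olfr313, Olfr223 and Olfr395), 7 with odor alone (Olfr1386, Olfr1383, Olfr51, Olfr323, Olfr320, Olfr318 and Olfr317), and 30 in neither. With the pool as a block Olfr1386 lost its odor call (adjusted p = 0.055), Olfr329 and Olfr313 passed with odor too (0.014 and 0.026), and Olfr317 passed with vehicle too (0.017). Leaving out single odor pools ended the odor calls of Olfr1386 (differences of 0.81 to 1.63), Olfr1383 (0.86 to 1.11) and Olfr317 (-1.12 to -0.72), and leaving out vehicle replicate 4 the vehicle call of Olfr313 (-1.64, adjusted p = 0.053). The odor and vehicle pools held different mice. Over the 78 receptors the differences correlated at 0.988 between treatments, as a description over genes that share arrays, with 0.978 for the other Olfr features. All 8 pools were higher in titled GFP- for 22 receptors and lower for 23, which is 28.2% and 29.5% of them against 15.9% and 11.5% of all features. For the other Olfr features these shares were 41.3% and 19.8%, so pools of one sign are not particular to chromosome 11.

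**Figure D4:**
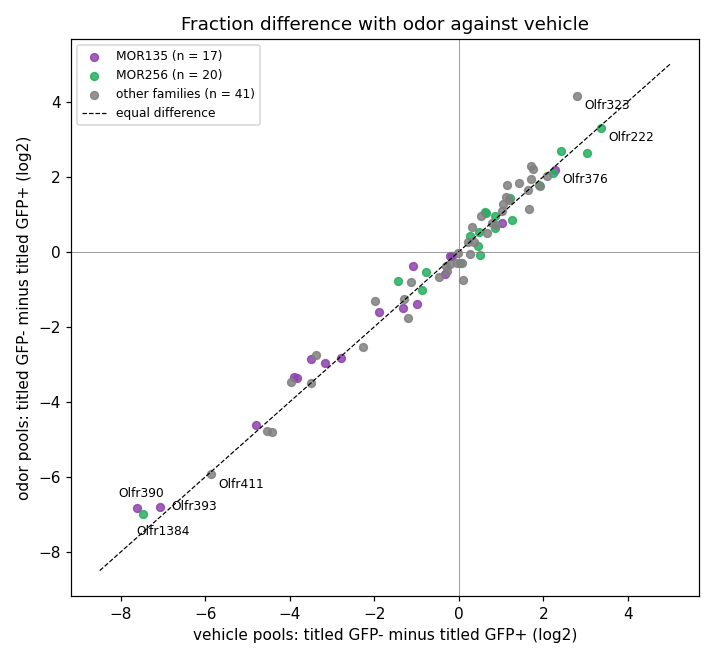
Fraction difference of each receptor in odor pools (vertical) against that in vehicle pools (horizontal), both titled GFP- minus titled GFP+ in log2 signal, with MOR135 in purple and MOR256 in green. The dashed line marks equal differences. The 78 points follow it (r = 0.988), and Olfr323 lies farthest above it.

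Whether the odor mixture changed the fraction difference was asked by the difference of the differences, in the fit without the pool as a block. No receptor of the 78 passed (limma), and 0.00% of all features did. At an unadjusted p below 0.05 there was 1 receptor, Olfr59, against 3.78% of all features. Values ran from -0.87 for Olfr59 to 1.37 for Olfr323 with a median of 0.02. No receptor had all odor pool differences on one side of all vehicle pool differences, whereas 2.11% of all features had them above and 1.32% below.

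Olfr59, of family MOR133, read 8.93, 8.98, 8.51 and 10.07 on the titled GFP- and 8.95, 8.92, 9.33 and 8.87 on the titled GFP+ arrays of vehicle pools and 8.46, 8.74, 8.49 and 9.17 on the titled GFP- and 9.91, 9.34, 9.29 and 9.37 on the titled GFP+ arrays of odor pools. Its pool differences were -0.02, 0.06, -0.82 and 1.20 with vehicle and -1.45, -0.60, -0.80 and -0.21 with odor, so the odor pools were all lower in titled GFP- but overlapped with the vehicle pools. The difference of the differences was -0.87 ± 0.38 (SE, unadjusted p = 0.0352, adjusted p = 1). Olfr395 and Olfr225 had the next smallest p (0.71 ± 0.38 SE, unadjusted p = 0.0833, adjusted p = 1, and -0.58 ± 0.32 SE, unadjusted p = 0.0892, adjusted p = 1), and both were below background on all 16 arrays.

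For the receptors with the largest fraction differences the intervals give what size of odor effect that fit allows. They leave out that the fractions of a pool share mice, and intervals with the pool as a block are not given here. The difference of the differences was -0.05 (95% interval -1.20 to 1.10) for Olfr222, -0.39 (95% interval -1.19 to 0.40) for Olfr1382, -0.14 (95% interval -0.72 to 0.45) for Olfr1381 and 0.48 (95% interval -0.33 to 1.29) for Olfr1384. It was 0.79 (95% interval -0.68 to 2.25) for Olfr390 and -0.05 (95% interval -1.12 to 1.02) for Olfr411. The interval of Olfr323, 1.37 (95% interval -2.11 to 4.85), was the widest, and effects of several log2 units remain within it. The narrowest interval was that of Olfr1373, 0.02 (95% interval -0.47 to 0.52). A p that misses the threshold does not show that the treatments act alike.

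**Figure D5:**
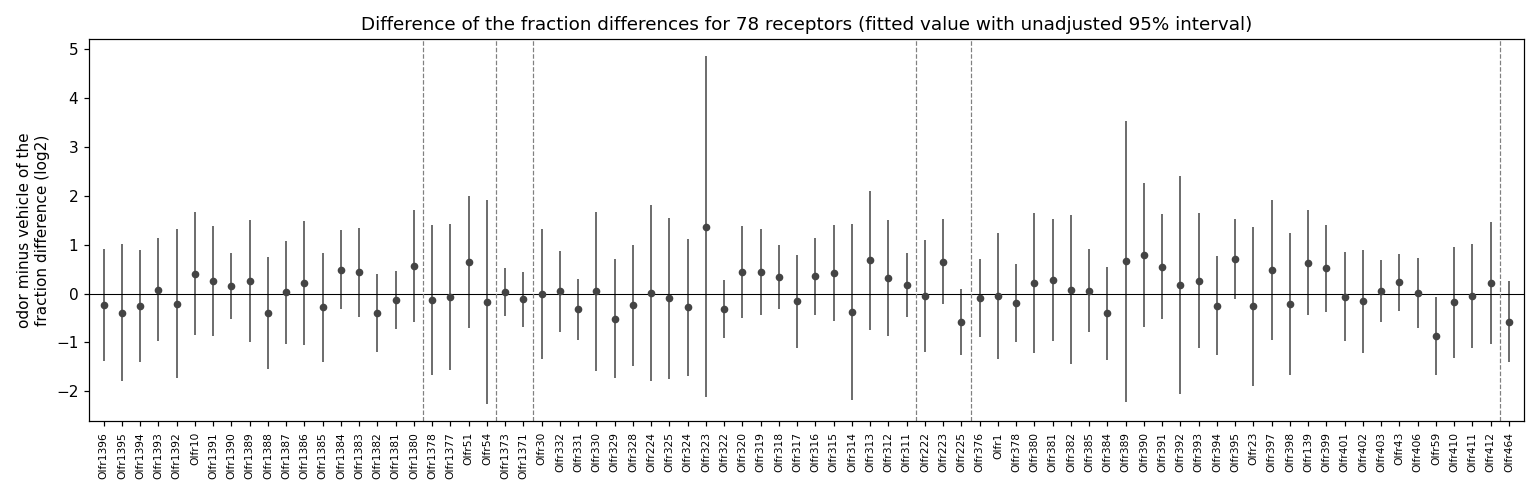
Difference of the fraction differences, odor minus vehicle (log2), for the 78 receptors in the order of the chromosome, with unadjusted 95% intervals of the fit. The fit has no pool block, so the intervals leave out that the fractions of a pool share mice. In it only the interval of Olfr59, from -1.67 to -0.07, excludes 0, and that of Olfr323 is the widest.

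Odor was also set against vehicle within each fraction. In titled GFP- cells 0 receptors passed (limma, 0.00% of all features), and none had an unadjusted p below 0.05, against 4.11% of all features. The smallest p belonged to Olfr464, Olfr1383 and Olfr1388. Olfr464 read 11.17, 11.02, 11.47 and 11.31 with odor and 11.89, 11.89, 11.54 and 11.83 with vehicle, and the groups did not overlap (-0.54 ± 0.28 SE, unadjusted p = 0.0672, adjusted p = 0.999). Olfr1383 read 10.64, 10.13, 10.78 and 9.71 against 10.39, 9.98, 9.23 and 9.32 (0.59 ± 0.30 SE, unadjusted p = 0.0688, adjusted p = 0.999), and Olfr1388 8.37, 9.72, 8.11 and 10.24 against 9.38, 9.78, 9.46 and 10.55 (-0.68 ± 0.38 SE, unadjusted p = 0.0917, adjusted p = 0.999), with overlap in both. The median over the 78 receptors was -0.11.

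In titled GFP+ cells 0 receptors passed as well (0.00% of all features). An unadjusted p below 0.05 was reached by 3, Olfr315, Olfr223 and Olfr399, against 10.3% of all features. Olfr315 read 6.54, 6.82, 5.78 and 7.31 with odor and 7.35, 7.31, 7.57 and 7.27 with vehicle (-0.77 ± 0.33 SE, unadjusted p = 0.0325, adjusted p = 0.439), with a slight overlap, and only 1 of its 4 odor arrays was above background. Olfr399 read 7.50, 8.65, 8.45 and 8.94 against 8.27, 9.28, 8.78 and 9.76 (-0.64 ± 0.30 SE, unadjusted p = 0.0486, adjusted p = 0.481), with overlapping groups. Olfr223 was below background in both groups (-0.62 ± 0.29 SE, unadjusted p = 0.0466, adjusted p = 0.478). The median was -0.12, and it was -0.01 and 0.15 after centring on the tested and on the receptor median. No alternative setting called a receptor in any of these 3 odor comparisons. With the pool number as a block 1 feature of all 19572 passed in each of the comparisons within a fraction.

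The genes through which receptors signal were compared by lists. Of 25 measured pathway genes 4 were higher in titled GFP- cells and 2 lower with vehicle, and 5 and 2 with odor. Over all features 16.9% passed with vehicle and 22.2% with odor. The counts of the lists are near these shares and are not read as a trait of the pathway. Among G protein and second messenger genes 2 of 7 were higher, the phosphodiesterases Pde1c at 0.57 ± 0.10 (SE, adjusted p = 0.00072) and Pde4a at 0.40 ± 0.13 (SE, adjusted p = 0.041) in vehicle pools, while Gnal, the olfactory G protein subunit, was at 0.06 ± 0.11 (SE, adjusted p = 0.73) and Adcy3, the cyclase, at 0.24 ± 0.10 (SE, adjusted p = 0.11) without passing. In odor pools Adcy3 was higher (0.30 ± 0.10 SE, adjusted p = 0.04) and Pde4a did not pass (0.21 ± 0.13 SE, adjusted p = 0.24). Among channels 1 of 4 was higher, Ano2, the calcium-activated chloride channel, at 0.39 ± 0.10 (SE, adjusted p = 0.014). Among regulators of the signal Slc8a1, a sodium-calcium exchanger, was higher (0.89 ± 0.13 SE, adjusted p = 7.3e-05), and Grk3, a kinase that phosphorylates active receptors, was lower (-1.06 ± 0.22 SE, adjusted p = 0.0029) but not well above background in any group. None of 3 trafficking genes passed in vehicle pools, with the receptor chaperone Rtp2 at 0.37 ± 0.13 (SE, adjusted p = 0.056), and Rtp2 alone was higher in odor pools (0.37 ± 0.13 SE, adjusted p = 0.045). Of 6 genes tied to receptor gene choice only Lbr, the lamin B receptor, passed, and it was lower (-1.67 ± 0.32 SE, adjusted p = 0.0015). No pathway gene passed in any of the 3 odor comparisons (limma).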

How the data were processed

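Log2 array signals were used as deposited, a unit read from their range of 1.77 to 19.3 over the 16 arrays. The submitters' processing notes name Affymetrix Expression Console. Its version, background correction and normalization are not given in the sources used here. Of 28846 entries, 19572 with 1 gene symbol were tested, without a filter on low values, which 69 of the 78 receptors would pass. Probe sequences were not used here, so how far close relatives are told apart is unknown, and the scale of each array is the deposited one.

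A limma cell-means model over 4 groups of 4 arrays (limma 3.58.1, R 4.3.3) gave 5 comparisons, two-sided, with p-values adjusted by Benjamini-Hochberg over all 19572 features and called at 0.05. SE comes from that model, and intervals are at 95%. It was tested on simulated data whose arrays were drawn independently, so that check does not cover the sharing of mice between fractions. Each replicate is a pool of different mice, and the number of arrays limits the precision. The members, gene lists and tests were chosen with earlier results of these data known. The genes described with values were the 6 highest and 6 lowest receptors past the threshold in each fraction comparison, the 3 with the smallest p in each odor comparison, and the extremes and strongest signal of each stretch. Families, pairs of relatives and the printed windows were chosen after the values were seen.

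Background was the 95th percentile of 23 background probe sets graded by GC content. The design named negative control entries for this, but the platform annotation used here does not list the 5222 entries named as such, and their 95th percentile (9.14 to 10.9) exceeds the median receptor signal, so they served as an alternative added after seeing the data. Fractions of one pool come from the same mice. Their deviations from group means correlated at 0.0957 to 0.337, and those of odor and vehicle arrays of one number at 0.147 to 0.547, each sample best with its own number in 8 of 8 cases, so fits with a replicate block were run as alternatives. Gene names, families and neighbours came from a RefSeq table (GRCm38.p6), which matched all 78 receptors, and upstream windows were aligned with Biopython 1.88. Protein sequences were not used here. The other alternatives were quantile normalization, 2 centrings, an intensity trend, array weights, a filter on dim features and leaving out each replicate.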

Additional observations from a re-analysis of the deposited data

Results flagged for a closer look

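Among 32 receptors described by rule, each group of 4 arrays was tested for a value far from the others, by Dixon's ratio at its 95% critical value. Of 128 groups 7 held such a value, and chance alone flags about 5% of groups. Olfr222 read 15.3 on the vehicle titled GFP- array of replicate 2, against 14.4 to 14.5 on the other arrays of that group. For Olfr1380 the same pool gave 2 such values, 11.3 on its titled GFP- array against 10.2 to 10.4, and 8.27 on its titled GFP+ array against 8.94 to 9.04. Olfr464 read 11.5 on the vehicle titled GFP- array of replicate 3, against 11.8 to 11.9. In odor pools Olfr390 read 13.4 on the titled GFP+ array of replicate 4, against 12.4 to 12.5. On the titled GFP+ array of odor replicate 1, Olfr328 read 11.4 against 13.0 to 13.1 and Olfr59 read 9.91 against 9.29 to 9.37.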

How the results depend on the processing

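In 15 alternatives the count of receptors past the threshold stayed within 1.5 times in all 5 comparisons, in all and by direction, with 1 exception: centring on the tested median raised the receptors higher in vehicle pools from 18 to 37. The replicate block (the pool) gave 23 higher and 25 lower in vehicle pools and 23 and 22 in odor pools, and beyond the receptors named above it changed only the vehicle call of Olfr312 (adjusted p = 0.018). Calls held in every setting for 27 receptors with vehicle and 32 with odor. Some differences that did not pass changed sign: in vehicle pools after centring on the tested median Olfr1378 was 0.19, Olfr1396 0.13 and Olfr394 0.066, and after centring on the receptor median Olfr332 was -0.044. Leaving out 1 vehicle pool gave -0.54 to 0.10 for Olfr1396, -0.62 to 0.0024 for Olfr394 and -0.014 to 0.41 for Olfr332, the sign turning without replicate 2, 2 and 1 in this order. Olfr323 kept its size without odor replicate 1, 2, 3 or 4 (4.01 to 4.30) but not its call (adjusted p of 0.052 to 0.073), and without vehicle replicate 3 its vehicle difference was 3.86 and passed. Over all features, 3302 vehicle calls became 13985 and 2144 under the centrings on the tested and receptor median and 2138 without vehicle replicate 1, and 4338 odor calls became 11192, 2790 and, without odor replicate 1, 2689. Higher receptors of the first stretch went from 5 to 13, and of the fourth from 5 to 10 and 2, under those centrings in vehicle pools. The cause of these changes was not tested. Signal over background limits the 11 vehicle and 11 odor calls that are bounds.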

Other observations

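Receptors that did not pass in either treatment were not all dim. Of the 30, Olfr1396, Olfr1392, Olfr30, Olfr332, Olfr330, Olfr394 and Olfr398 were above the stricter negative control level on all 16 arrays, and their vehicle differences ran from -1.30 (Olfr330) to 0.85 (Olfr1392). Olfr30, at the edge of the fourth stretch, read 11.60, 12.32, 11.31 and 13.46 on the titled GFP- and 11.16, 12.29, 10.69 and 11.39 on the titled GFP+ arrays of vehicle pools (0.79 ± 0.44 SE, adjusted p = 0.24), higher in titled GFP- in 4 of 4 vehicle and 3 of 4 odor pools. Olfr398, the MOR157 gene of the sixth stretch, read 11.27, 11.57, 12.12 and 9.85 on the titled GFP- and 11.77, 11.51, 12.71 and 10.68 on the titled GFP+ arrays of vehicle pools (-0.47 ± 0.48 SE, adjusted p = 0.54), so the groups overlapped.

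The difference of Olfr1392 varied widely between pools. Its pool differences were -0.15, 1.68, -0.71 and 2.58 with vehicle and -0.84, 1.25, -0.17 and 2.32 with odor, which average to 0.85 ± 0.51 (SE, adjusted p = 0.27) and 0.64 ± 0.51 (SE, adjusted p = 0.39). Olfr54 showed a like pattern of levels: replicates 2 and 4 were the highest in titled GFP- with either treatment, at 8.54, 10.93, 8.43 and 10.94 in vehicle and 8.86, 10.71, 8.09 and 10.31 in odor pools. Olfr10, a MOR256 gene, was measured on all 16 arrays and did not pass (0.63 ± 0.42 SE, adjusted p = 0.32, and 1.04 ± 0.42 SE, adjusted p = 0.084), though its odor difference was 1.5 without odor replicate 1 and passed (adjusted p = 0.035).

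The receptors at or below background on all 16 arrays were Olfr1390, Olfr1378, Olfr331, Olfr322, Olfr223, Olfr225, Olfr385, Olfr395 and Olfr401. Of these, 4 are MOR256 and 2 MOR135, and their signals say nothing of whether a few cells expressed them.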
